A study of Mus musculus with 6 samples.

Results

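The collagen family was examined in skin wounds of FoxO1 +/- and wild-type (WT) mice 3 days after injury, a stage at which the wound is filled by inflammatory cells and a provisional matrix. Members were all non-control array probes whose RefSeq accession mapped to a symbol of the form Col, number, a, number. This gave 61 probes for 42 genes, of 55645 probes in all. The reference table lists 44 such genes, and no probe was matched to Col12a1 or Col6a3. Of the 42 genes, 38 were kept, having a probe that the scanner software marked well above background on the 3 arrays of a genotype, and 34 were well above background on all 6 arrays. For the other 4 kept genes (Col2a1, Col4a3, Col6a4 and Col22a1), all 3 WT arrays and 2 of 3 FoxO1 +/- arrays passed that flag.

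The groups were wound RNA on 3 arrays from mice heterozygous for FoxO1 (FoxO1 +/-) and on 3 arrays from WT mice, all male and of the strain labelled C57/BL6, and wounding is the only treatment the labels give. Each mouse received 4 full-thickness punch wounds of 4 mm in its shaved back, and the wounds were cut out with a 6 mm punch, which takes in a rim of the surrounding skin. How the FoxO1 allele was disrupted, and the age of the mice, are not given in the sources used here. Each array was taken as 1 animal because the titles number the mice, but the series text does not say how wounds were pooled, so p-values measure the spread between arrays, part of which may be technical. Foxo1 itself, the targeted gene, had levels of 1.54, 1.69 and 1.49 in FoxO1 +/- wounds, against 2.04, 1.81 and 2.32 in WT wounds, on the probe with the higher signal. On its other probe the levels were 0.38, 0.50 and 0.30 in FoxO1 +/- wounds, against 1.31, 1.04 and 1.51 in WT wounds. Both probes were lower in every FoxO1 +/- wound than in every WT wound, and neither passed limma's adjusted p of 0.05 over 37898 probes (0.547 and 0.190). The sources used here do not place the probes inside or outside the disrupted stretch, so the check of the labels is limited to that extent.

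The 75th percentile signal was 1095, 1118 and 899 on the FoxO1 +/- arrays, against 1174, 1150 and 1299 on the WT arrays, and 64.3% to 71.3% of spots in FoxO1 +/- wounds and 71.3% to 71.9% in WT wounds were well above background. FoxO1 +/- replicate 3 was the dimmest array. All arrays were on 1 slide, with FoxO1 +/- replicate 1 and the 3 WT arrays in its first row and the other FoxO1 +/- arrays in its second. The tissue label was checked with 4 epidermal markers (Krt10, Lor, Krt1 and Dsg1a), all of them kept, whose mean level was 5.22 to 5.67 in FoxO1 +/- wounds and 5.09 to 5.52 in WT wounds. Adipocyte markers averaged 3.43 to 3.90 in FoxO1 +/- wounds, against 2.35 to 3.29 in WT wounds, and macrophage markers 5.63 to 5.70, against 5.43 to 5.48, both without overlap of these means. Of 4 listed macrophage markers 3 were kept, and Cd68 was not. Gene by gene, 4 of 5 adipocyte and 1 of 3 macrophage markers (Csf1r) had non-overlapping genotypes, where 11.5% of all genes did. Markers of myofibroblasts and smooth muscle (2.08 to 2.30 in FoxO1 +/- wounds, against 2.11 to 2.29 in WT wounds), skeletal muscle (2.95 to 4.35, against 2.95 to 4.46) and Schwann cells (0.27 to 0.64, against 0.42 to 0.69) overlapped. The part of these cell types in the collagen values was not tested.

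Collagens are triple helices of 3 chains, each wound from repeats with regularly spaced glycine. Fibrillar collagens bundle into the cables that give dermis its tensile strength, type IV collagen forms the sheet-like network of basement membranes, and FACIT collagens (fibril-associated collagens with interrupted triple helices) sit on the surface of fibrils. Types VII and XVII anchor the epidermis to the dermis. In wound repair, fibroblasts lay down type III and type I collagen in granulation tissue, while keratinocytes and vessels rebuild basement membrane. A level in what follows is a log2 intensity relative to the 75th percentile of the same array, a difference is FoxO1 +/- minus WT on that scale, and levels of different genes are not compared, since each probe has its own brightness. In a whole-wound sample, fewer cells of a type and less RNA per cell cannot be told apart.

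For none of the 38 collagen genes was a difference between FoxO1 +/- and WT wounds found beyond the spread between arrays. At a limma adjusted p under 0.05, 0 of 38 collagens passed, where 0.00609% of the 16408 genes tested did. At an unadjusted p under 0.05 there were also 0 of 38, where 6.25% of all genes passed, and the smallest unadjusted p was 0.0881, for Col8a1. In 0 of 38 collagens were the 3 arrays of a genotype all above or all below those of the other, where this held for 11.5% of all genes (6.91% higher and 4.56% lower in FoxO1 +/- wounds). A difference of 1.5-fold or more either way occurred in 1 of 38 collagens, Col8a2, where 3.88% of all genes had one. Col8a2 was below that size on its other kept probe (-0.15), with the mean over its probes (-0.45) and with normexp (-0.47). Differences were above 0 for 25 of 38 collagens (65.8%), where 53.7% of all genes were above 0. Under quantile normalization 21 of 38 were above 0, and under normexp background correction 30 of 38. The median difference was 0.09, against 0.01 over all genes, and the differences ran from -0.75 for Col8a2 to 0.34 for Col6a5.

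How small a change the arrays could have missed varies by gene. The 95% interval of the difference lay within 1.5-fold in either direction for 17 of 38 collagens (44.7%), where 74.6% of all genes had such an interval. These 17 include Col1a1, Col1a2, Col3a1, Col4a1 and Col4a2. Each interval is for the probe of the gene with the highest mean signal. Col4a4 and Col23a1 are also among the 17, though other kept probes gave -0.50 for Col4a4, and -0.39 and 0.36 for Col23a1. For the other 21, a difference of 1.5-fold or more in at least 1 direction remained inside the interval. By class, the interval was within 1.5-fold for 4 of 11 fibrillar, 6 of 8 basement membrane, 4 of 6 FACIT, 0 of 2 epithelial anchoring and 3 of 11 remaining collagens.

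**Figure D1:**
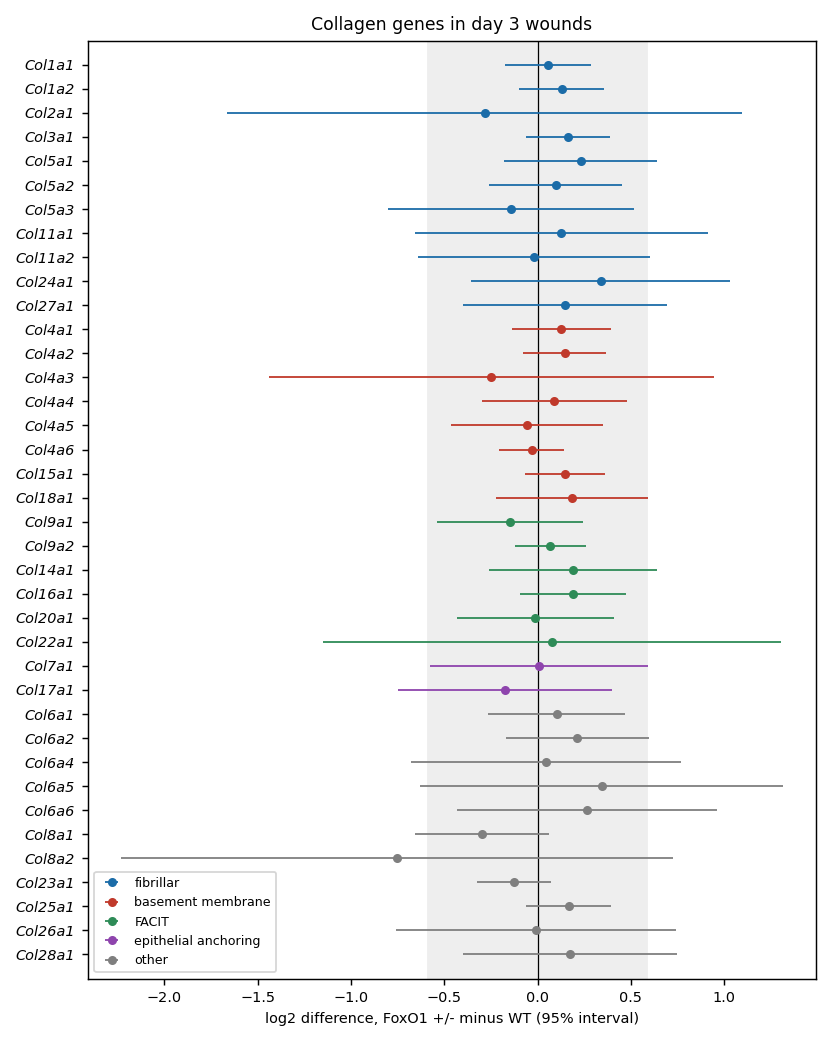
Log2 difference, FoxO1 +/- minus WT, for the 38 kept collagen genes, with 95% intervals from limma and n = 3 arrays per genotype. Colours give the class, and the grey band marks 1.5-fold in either direction. Each gene is shown on its probe with the highest mean signal. Every interval spans 0, and 17 of 38 intervals lie inside the band.

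Fibrillar collagens had values for all 11 genes, 8 above and 3 below 0 in the difference, with a median of 0.13 and 0 of 11 past the adjusted threshold. Quantile normalization gave a smaller median of 0.029, with 6 of 11 above 0. Type I collagen, the main protein of dermal fibrils, is built from 2 kinds of chain. Col1a1 levels were 7.34, 7.35 and 7.59 in FoxO1 +/- wounds, against 7.36, 7.44 and 7.31 in WT wounds. The genotypes overlapped, with FoxO1 +/- replicate 3 highest. The ratio was 1.04 (95% interval 0.887 to 1.22, limma adjusted p 0.989), and its sign is not stable, since the difference was 0.06 with percentile scaling and -0.08 with quantile normalization. Col1a2, which encodes the other chain, had levels of 8.98, 8.94 and 9.18 in FoxO1 +/- wounds, against 8.88, 8.99 and 8.84 in WT wounds. Again replicate 3 of FoxO1 +/- was highest, and the other FoxO1 +/- arrays lay just below WT replicate 2. The ratio was 1.09 (95% interval 0.933 to 1.28, limma adjusted p 0.909), and with quantile normalization the difference was 0 in place of 0.13.

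The promoter window of Col1a2 is shown because it holds the CCAAT and GC boxes discussed with the type IV pair further on (RefSeq, GRCm38.p6, chr6:4505368-4505667, plus strand, 5′ to 3′, matches in capitals to the CCAAT box on either strand, CCAAT or its reverse complement ATTGG, and to the GC box on either strand, GGGCGG or its reverse complement CCGCCC, with 4 matches in all).
Col1a2: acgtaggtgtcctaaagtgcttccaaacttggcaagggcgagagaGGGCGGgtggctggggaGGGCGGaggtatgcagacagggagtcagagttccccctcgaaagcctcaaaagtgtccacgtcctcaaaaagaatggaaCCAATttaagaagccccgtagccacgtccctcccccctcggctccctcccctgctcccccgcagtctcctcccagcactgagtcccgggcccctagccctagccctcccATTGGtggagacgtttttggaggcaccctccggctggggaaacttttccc

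Col3a1, the homotrimer laid down early in granulation tissue, had levels of 8.37, 8.36 and 8.55 in FoxO1 +/- wounds, against 8.23, 8.38 and 8.18 in WT wounds. The mean was 8.42 ± 0.11 in FoxO1 +/- wounds and 8.26 ± 0.10 in WT wounds (SD, n = 3 each). WT replicate 2 lay within the FoxO1 +/- range and the other 2 WT arrays below it. The difference was 0.16 (SE 0.09, limma adjusted p 0.866), or a ratio of 1.12 with a 95% interval of 0.958 to 1.31. With quantile normalization the difference was 0.029.

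Type V collagen copolymerises with type I and limits fibril diameter. Col5a1 levels were 5.05, 5.30 and 4.92 in FoxO1 +/- wounds, against 4.64, 5.16 and 4.78 in WT wounds, a difference of 0.23 (SE 0.17). Col5a2 levels were 1.83, 2.07 and 2.13 in FoxO1 +/- wounds, against 1.78, 2.19 and 1.78 in WT wounds, a difference of 0.10 (SE 0.15). In both genes WT replicate 2 stood above the other WT arrays and inside or above the FoxO1 +/- range. Col5a3, another type V chain, had levels of 5.42, 5.69 and 5.66 in FoxO1 +/- wounds, against 5.35, 6.35 and 5.50 in WT wounds. Its difference of -0.14 rested on that same WT array and was 0.17 without it.

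The remaining fibrillar genes are best known from cartilage and bone. Col24a1 had the highest difference of the class, 0.34 (SE 0.29), with levels of -1.38, -0.95 and -1.41 in FoxO1 +/- wounds, against -2.10, -1.02 and -1.64 in WT wounds. Without WT replicate 2 its difference was 0.62, with an unadjusted p of 0.0301 and a limma adjusted p of 0.462. Col27a1 differed by 0.15, Col11a1 by 0.13 and Col11a2 by -0.02, with overlapping genotypes in each. Col2a1, the main chain of cartilage fibrils, had levels of -5.16, -3.35 and -5.56 in FoxO1 +/- wounds, against -4.21, -4.70 and -4.30 in WT wounds. Its difference of -0.28 had an SE of 0.57. Of 6 cartilage markers, 4 were kept (Acan, Comp, Sox9 and Snorc), and Matn1 and Matn3 were not. The mean over these 4 ran from -2.84 to -2.72 in FoxO1 +/- wounds and from -2.93 to -2.42 in WT wounds, with overlap. Gene by gene the genotypes overlapped in each of the 4, but the markers did not move together. Comp differed by 0.36 (SE 0.15), Snorc by 0.15, Acan by -0.01 and Sox9 by -0.91 (SE 0.44). Sox9 was highest on WT replicate 1, at 0.33, the array with the highest mean.

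Basement membrane collagens had values for all 8 genes, 5 above and 3 below 0 in the difference, with a median of 0.11 and 0 of 8 past the adjusted threshold. Col4a1 and Col4a2 encode the chains of the most widespread type IV network and lie head to head on chromosome 8. Their promoter windows share 78 bases, and both are shown because the 2 genes had a Pearson r of 0.94 across the 6 arrays. Its exact permutation p, adjusted over 9 pairs, was 0.05 and so not under 0.05. The part of the shared bases in that correlation was not tested. Windows are from RefSeq (GRCm38.p6), Col4a1 at chr8:11312777-11313076 on the minus strand and Col4a2 at chr8:11312555-11312854 on the plus strand, each 5′ to 3′. Capitals mark CCAAT and GGGCGG boxes and their reverse complements, with 2 matches in the Col4a1 window and 4 in the Col4a2 window. The CCGCCC of the Col4a1 window and the last GGGCGG of the Col4a2 window are the same site, read on opposite strands of the shared bases.
Col4a1: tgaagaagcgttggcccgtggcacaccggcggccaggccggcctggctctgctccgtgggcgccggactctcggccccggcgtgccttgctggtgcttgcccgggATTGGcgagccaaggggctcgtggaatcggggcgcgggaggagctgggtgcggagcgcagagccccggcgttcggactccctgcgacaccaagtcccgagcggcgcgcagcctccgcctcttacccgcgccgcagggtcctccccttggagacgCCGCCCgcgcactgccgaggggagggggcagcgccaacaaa
Col4a2: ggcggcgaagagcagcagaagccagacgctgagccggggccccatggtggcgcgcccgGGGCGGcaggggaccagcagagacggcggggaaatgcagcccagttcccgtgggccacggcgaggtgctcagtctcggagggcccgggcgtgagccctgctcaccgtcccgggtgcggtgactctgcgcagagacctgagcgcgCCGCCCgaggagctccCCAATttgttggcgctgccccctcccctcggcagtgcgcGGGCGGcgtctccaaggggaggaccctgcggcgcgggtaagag

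Col4a1 levels were 3.58, 3.89 and 3.64 in FoxO1 +/- wounds, against 3.56, 3.49 and 3.68 in WT wounds. The genotypes overlapped, with FoxO1 +/- replicate 2 highest and WT replicate 2 lowest, and the ratio was 1.09 (95% interval 0.908 to 1.31, limma adjusted p 0.932). The Col4a1 probe was spotted 10 times per array, and the SD of its log2 signal over those spots was 0.055 to 0.071, against SDs between arrays of 0.17 in FoxO1 +/- and 0.098 in WT wounds. Col4a2 levels were 3.32, 3.52 and 3.36 in FoxO1 +/- wounds, against 3.29, 3.14 and 3.33 in WT wounds. The order of the extreme arrays was that of Col4a1, and the ratio was 1.11 (95% interval 0.948 to 1.29, limma adjusted p 0.888).

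The minor type IV chains differed by -0.25 (SE 0.49) for Col4a3, 0.09 (SE 0.16) for Col4a4, -0.06 (SE 0.17) for Col4a5 and -0.03 (SE 0.07) for Col4a6. The α5 and α6 chains form a network in epidermal basement membrane, and the Col4a6 interval, a ratio of 0.868 to 1.11, was the narrowest of the 38. That interval is for the brighter Col4a6 probe. The other kept probe gave -0.13 (SE 0.42), and the mean over its probes gave -0.08 (SE 0.22). Types XV and XVIII are proteoglycan collagens of the basement membrane zone, and the end of type XVIII can be cleaved to endostatin. Col18a1 levels were 3.86, 4.21 and 4.28 in FoxO1 +/- wounds, against 4.21, 3.76 and 3.83 in WT wounds. FoxO1 +/- replicate 1 lay among the WT arrays and WT replicate 1 among the FoxO1 +/- arrays, and the difference was 0.18 (SE 0.17). Col15a1 differed by 0.15 (SE 0.09, limma adjusted p 0.875).

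Endothelial markers are given beside this class because vessels make basement membrane. All 4 (Pecam1, Cdh5, Kdr and Tek) had a difference above 0, and their mean level was 1.34 to 1.49 in FoxO1 +/- wounds, against 1.20 to 1.29 in WT wounds, without overlap. Gene by gene, 2 of 4 had non-overlapping genotypes, where 11.5% of all genes did, and none of the 4 passed the adjusted threshold. The median deviation of the basement membrane genes ran from -0.033 to 0.18 in FoxO1 +/- wounds and from -0.17 to 0.053 in WT wounds, with overlap. The endothelial markers' part in the basement membrane values was not tested.

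FACIT collagens had probes for 8 genes, of which 6 were kept, 4 above and 2 below 0 in the difference, with a median of 0.07 and 0 of 6 past the adjusted threshold. Col14a1, which coats type I fibrils in skin, had levels of 4.93, 5.23 and 4.54 in FoxO1 +/- wounds, against 4.87, 4.62 and 4.63 in WT wounds. FoxO1 +/- replicate 2 was highest and replicate 3 lowest of all arrays, so that the spread within the genotype spanned all WT values (difference 0.19, SE 0.18). Col16a1, a FACIT collagen of the dermis, had levels of 5.38, 5.67 and 5.30 in FoxO1 +/- wounds, against 5.29, 5.33 and 5.17 in WT wounds. Its lowest FoxO1 +/- array lay just below the highest WT array, and the difference was 0.19 (SE 0.12, limma adjusted p 0.887). Col9a1 (-0.15), Col9a2 (0.07), Col20a1 (-0.01) and Col22a1 (0.08, SE 0.50) also overlapped. Col9a3 and Col19a1 stayed near background on the 6 arrays.

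Both epithelial anchoring genes were measured. Col7a1, which encodes the anchoring fibrils beneath the epidermis, had levels of 2.83, 2.53 and 2.92 in FoxO1 +/- wounds, against 3.27, 2.56 and 2.43 in WT wounds. The difference was 0.01 (SE 0.24), with a ratio between 0.671 and 1.51 in the 95% interval, and -0.02 with median scaling, -0.01 with quantile normalization and -0.01 with normexp. Col17a1, the transmembrane collagen of hemidesmosomes, had levels of 3.09, 2.57 and 3.24 in FoxO1 +/- wounds, against 3.50, 2.83 and 3.10 in WT wounds, a difference of -0.18 (SE 0.24). WT replicate 1 was highest of the 6 arrays for both genes. The 4 kept hair follicle markers (Krt31, Krt33a, Msx2 and Lgr5) also averaged highest there, at 0.32. That mean ran from -2.31 to -1.94 in FoxO1 +/- wounds, and the other WT wounds reached -1.73 at most. Much of the gap came from Krt33a, at 1.51 on WT replicate 1 and -4.52 or lower on every other array. Krt31 and Lgr5 were also highest on WT replicate 1, but Msx2 was highest on WT replicate 2 (-0.06, against -0.59 on WT replicate 1). Basal keratinocyte markers averaged 5.05 to 5.68 in FoxO1 +/- wounds and 5.29 to 5.67 in WT wounds, lowest on FoxO1 +/- replicate 2, on which Col17a1 was also lowest. The part of either cell type in the values was not tested. Without WT replicate 1 the differences were 0.26 for Col7a1 and 0.0029 for Col17a1.

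**Figure D2:**
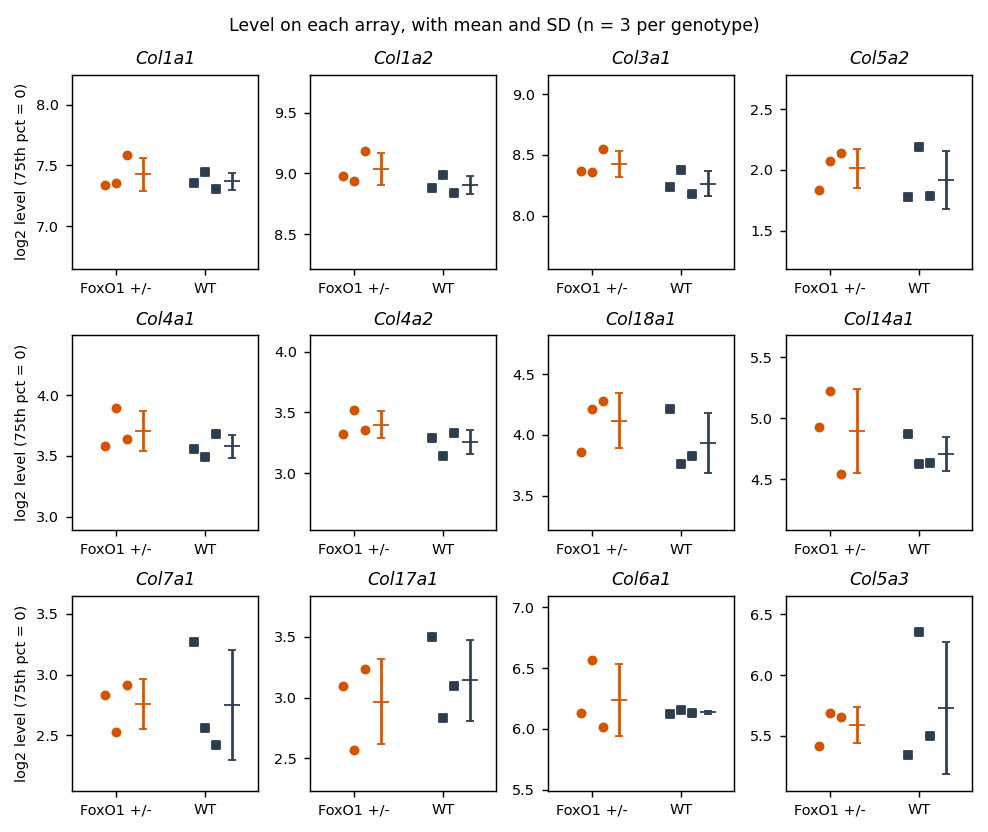
Log2 level of 12 collagen genes on each array, relative to the array's 75th percentile, FoxO1 +/- left and WT right, with replicates 1 to 3 in order and the mean and SD beside them (n = 3). All panels span the same range of 1.6 log2 units. The genotypes overlap in every panel, and Col5a3 on WT replicate 2 (6.35) and Col7a1 on WT replicate 1 (3.27) stand apart from the other WT arrays.

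The remaining class holds beaded filament, network-forming and transmembrane types. It had probes for 13 genes, of which 11 were kept, 7 above and 4 below 0 in the difference, with a median of 0.10 and 0 of 11 past the adjusted threshold. Type VI collagen forms beaded filaments near cells. Col6a1 levels were 6.13, 6.57 and 6.01 in FoxO1 +/- wounds, against 6.12, 6.15 and 6.13 in WT wounds. The WT arrays were nearly equal, and FoxO1 +/- replicate 2 alone lay above them (difference 0.10, SE 0.15, and -0.06 without it). Col6a2 differed by 0.21 (SE 0.16), and the alternative chains Col6a4, Col6a5 and Col6a6 by 0.04, 0.34 and 0.26. All 5 type VI genes were highest on FoxO1 +/- replicate 2.

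Among the promoter windows of 35 collagen genes in the RefSeq table, that of Col6a1 was the only one to hold GTAAACA or its reverse complement TGTTTAC, the core recognised by forkhead factors, and it is shown for that reason (GRCm38.p6, chr10:76725995-76726294, minus strand, 5′ to 3′, match in capitals).
Col6a1: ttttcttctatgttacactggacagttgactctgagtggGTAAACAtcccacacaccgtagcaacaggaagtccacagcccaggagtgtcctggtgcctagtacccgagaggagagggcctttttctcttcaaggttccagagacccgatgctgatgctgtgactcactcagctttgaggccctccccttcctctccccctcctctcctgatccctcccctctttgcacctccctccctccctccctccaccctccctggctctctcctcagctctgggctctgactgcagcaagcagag

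That is 1 of 38 windows (2.63%), where 3.65% of all 32851 windows hold the motif. GC boxes (GGGCGG or CCGCCC) were in 23 of 38 collagen windows (60.5%), against 35.7% of all windows. The Col4a1 and Col4a2 windows are each counted, though they share a box. CCAAT boxes (CCAAT or ATTGG) were in 13 (34.2%), against 37.4%, and TATAAA or TTTATA in 5 (13.2%), against 13.6%. A match is a string of letters in a window of 300 bases around the annotated start and not a shown binding site. Both strands were searched, and ATTGG and GGGCGG can share bases where they adjoin.

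Col8a1 and Col8a2 encode short-chain collagens that form networks around vessels and in the cornea. Col8a1, with the smallest unadjusted p of the family, had levels of 0.47, 0.21 and 0.10 in FoxO1 +/- wounds, against 0.49, 0.80 and 0.40 in WT wounds. FoxO1 +/- replicate 1 lay between the WT arrays and the other 2 below them, and the difference was -0.30 (SE 0.15, limma adjusted p 0.838). On its brighter probe Col8a2 had the largest difference in size, -0.75 (SE 0.61), from levels of -2.10, -2.95 and -3.89 in FoxO1 +/- wounds, against -1.75, -3.30 and -1.63 in WT wounds. Its arrays spread over more than the difference in both genotypes, and the ratio of 0.593 had a 95% interval of 0.213 to 1.65. With slide row as a block the difference was 0.13. The transmembrane collagen genes Col23a1 and Col25a1 differed by -0.13 and 0.17, Col26a1 by -0.01 and Col28a1 by 0.17. Col13a1 stayed near background on the 6 arrays, and Col10a1 was well above it on 1 FoxO1 +/- and 2 WT arrays.

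Several probes for a gene give a check within each array. Of 10 genes with more than 1 kept probe, 5 had probes that shared a sign and lay within 0.5 of each other in the difference. The 3 Col16a1 probes ran from 0.17 to 0.19, both Col18a1 probes from 0.17 to 0.18 and both Col14a1 probes from 0.16 to 0.19. The other 5 were Col15a1, Col20a1, Col23a1, Col4a4 and Col8a2. The dimmer Col8a2 probe gave -0.15 (SE 0.08, limma adjusted p 0.831 over 37898 probes), with every FoxO1 +/- array below every WT array, where the brighter probe gave -0.75. The second Col4a4 probe had levels of -4.05, -3.80 and -4.06 in FoxO1 +/- wounds, against -3.42, -3.57 and -3.41 in WT wounds. All FoxO1 +/- arrays were below all WT arrays, by -0.50 (SE 0.10, limma adjusted p 0.314 over 37898 probes), whereas the Col4a4 probe with the higher signal gave 0.09. For Col23a1, a second probe gave -0.39 (SE 0.12, limma adjusted p 0.558) without overlap, where the first gave -0.13 and another 0.36 (SE 0.67). Over the 51 kept collagen probes, 4 had non-overlapping genotypes (7.84%), where 12.8% of all kept probes did (1 higher and 3 lower, against 8.28% and 4.57% of all kept probes). The 1 higher was a Col16a1 probe dimmer than the one described above, with levels of 2.26, 2.49 and 2.15 in FoxO1 +/- wounds, against 2.06, 2.14 and 2.14 in WT wounds. It differed by 0.18 (SE 0.11, limma adjusted p 0.843 over 37898 probes). Of the 51 probes, 2 had an unadjusted p under 0.05 (3.92%), where 6.71% of all kept probes did.

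**Figure D3:**
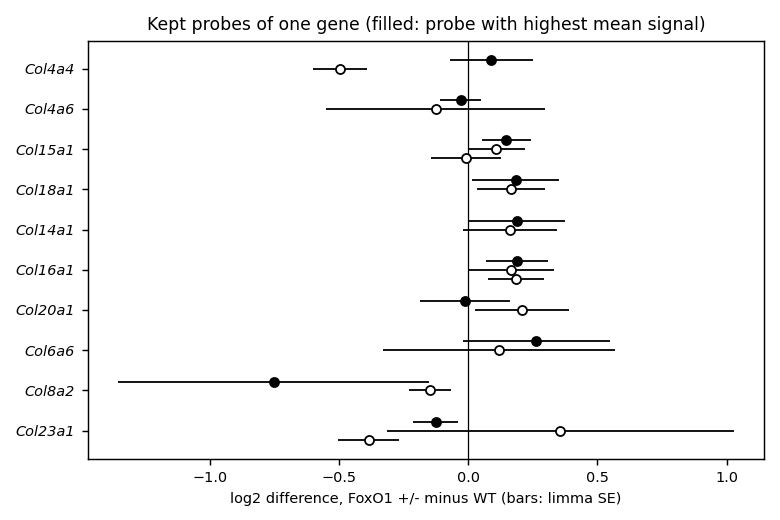
Log2 difference, FoxO1 +/- minus WT, of every kept probe for the 10 collagen genes with more than 1, with limma SE bars and n = 3 arrays per genotype. Filled points are the probe with the highest mean signal. The Col16a1 probes lie at 0.17 to 0.19, and the Col4a4 probes at 0.09 and -0.50.

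The highest levels were not spread evenly over the arrays. FoxO1 +/- replicate 2 held the highest level for 16 of 38 collagens, among them 5 fibrillar and 7 of the remaining class, and the lowest for 2. The share of all genes that peak on that array was not counted, so the count is not shown to be particular to collagens. The median deviation from a gene's mean over the 6 arrays was 0.012, 0.18 and -0.019 on FoxO1 +/- replicates 1, 2 and 3, against -0.047, -0.033 and -0.038 on WT replicates 1, 2 and 3. Without FoxO1 +/- replicate 2 the median difference over the 38 collagens was 0.024 in place of 0.093. Fibroblast markers (Pdgfra, Dcn, Lum, Dpt, Fbln1 and Fap) averaged 4.26, 4.45 and 4.24 on FoxO1 +/- replicates 1, 2 and 3, against 4.21, 4.19 and 4.31 on the WT arrays, so that replicate 2 was highest there too, and their part in the collagen values was not tested. Without WT replicate 2, 10 of 38 collagens had non-overlapping genotypes, where 26.7% of all genes did in that comparison of 3 against 2 arrays.

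**Figure D4:**
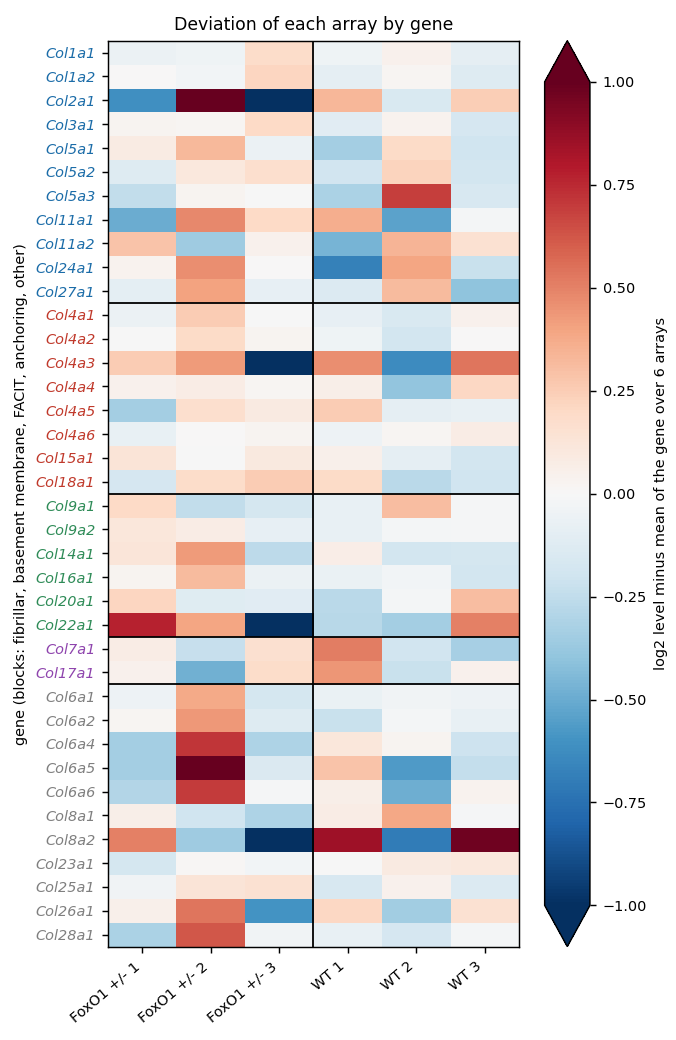
Deviation of the log2 level from the gene's mean over the 6 arrays, for 38 collagen genes in rows by class and 6 arrays in columns, FoxO1 +/- left of WT. Colours saturate at 1 log2 unit. The column of FoxO1 +/- replicate 2 is the one with the most row maxima, 16 of 38, and the share over all genes was not counted.

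Different chains of a collagen type can join in a helix, and 9 textbook pairs of chains were compared across the 6 arrays, chosen with the values known. Col4a1 and Col4a2 had a Pearson r of 0.94 (exact permutation p 0.00556, adjusted over 9 pairs 0.05) and a Spearman rho of 0.94 (exact p 0.0167, adjusted 0.075). Col1a1 and Col1a2 had r 0.94 (exact permutation p 0.0139, adjusted 0.0625) and rho 0.77 (exact p 0.103, adjusted 0.185). Col6a1 and Col6a2 had r 0.94 (exact permutation p 0.0375, adjusted 0.0844) and rho 0.89 (exact p 0.0333, adjusted 0.075). No pair was under an adjusted p of 0.05. Without the 2 arrays farthest from the median of the first chain, r over 4 arrays was 0.69 for Col4a1 and Col4a2, 0.54 for Col1a1 and Col1a2 and 0.68 for Col6a1 and Col6a2. Leaving out the farthest arrays also narrows the range of levels, which by itself tends to lower r.

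Col11a1 and Col11a2, both chains of type XI, went opposite ways, with r -0.91 (exact permutation p 0.0264, adjusted 0.0792), rho -0.94 (exact p 0.0167, adjusted 0.075) and r -0.90 without the 2 farthest arrays. Their levels were low, from -3.75 to -2.73 for Col11a1 and from -5.05 to -4.25 for Col11a2, though well above background on all 6 arrays. With normexp the Col11a2 difference was 0.17 in place of -0.02, and the correlation was not computed with that correction. The other 5 pairs had r from 0.11 for Col4a5 and Col4a6 to 0.67 for Col5a1 and Col5a2, with adjusted p-values of 0.229 or more for r. In rank, Col4a3 and Col4a4 had rho 0.89 (exact permutation p 0.0333, adjusted 0.075). Levels on an array share its scaling factor, and slide rows of 4 and 2 arrays are too small for values within them.

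**Figure D5:**
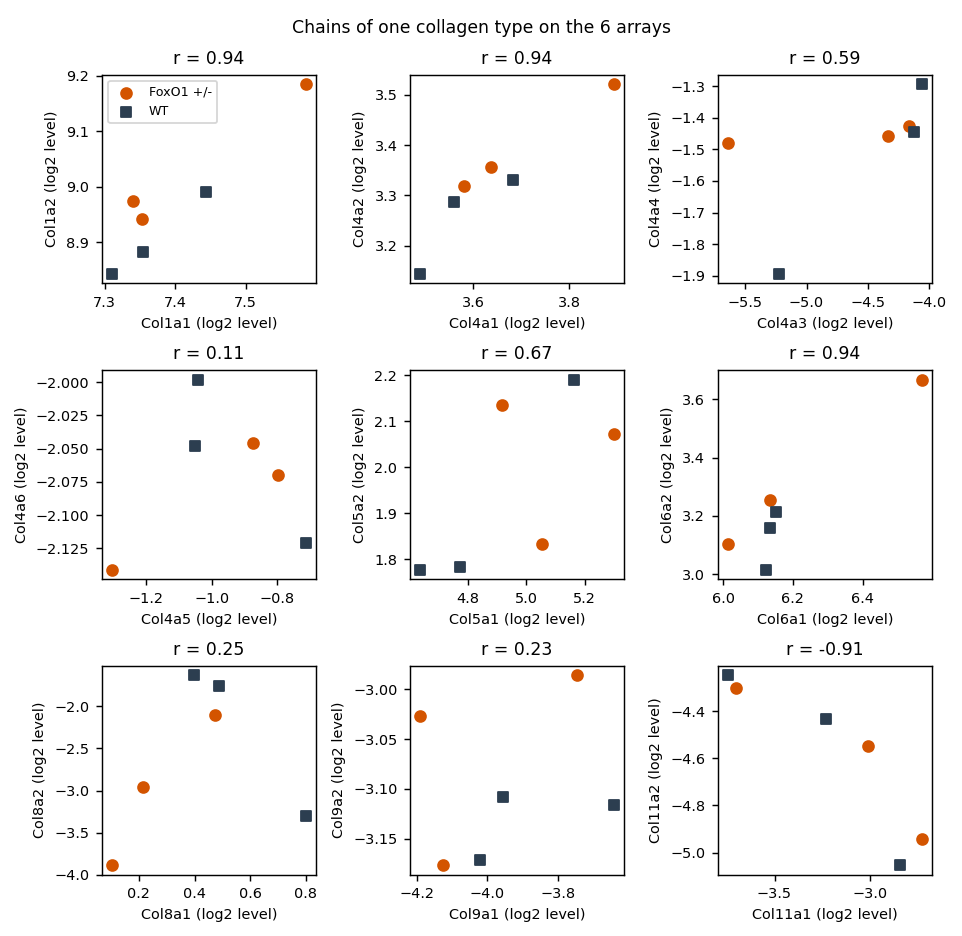
Log2 levels of 9 pairs of chains on the 6 arrays, relative to each array's 75th percentile, FoxO1 +/- as circles and WT as squares, with Pearson r above each panel. Points of both genotypes intermix, and r runs from -0.91 for Col11a1 and Col11a2 to 0.94 for Col4a1 and Col4a2.

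Genes that modify, export, cleave, cross-link, bind or degrade collagen gave a like picture. Of 54 listed partner genes 48 were kept, 30 above and 18 below 0 in the difference, where 53.7% of all genes were above 0, with a median of 0.03. At an unadjusted p under 0.05 there were 0 of 48, where 6.25% of all genes passed, and 0 of 48 passed limma's adjusted threshold. By list the median was 0.03 for 14 prolyl and lysyl hydroxylation genes, 0.00096 for 9 chaperone and export genes, 0.07 for 6 propeptide cleavage genes, 0.01 for 5 cross-linking genes, 0.06 for 8 receptor genes and 0.06 for 6 collagenase and gelatinase genes. P4ha1, a catalytic subunit of prolyl hydroxylase, differed by 0.19 (SE 0.21) and P4ha2, another such subunit, by 0.11. Serpinh1, the collagen chaperone HSP47, differed by 0.06 (SE 0.14) and Fkbp10, a prolyl isomerase that assists folding, by 0.11. Bmp1, which removes the C-propeptide of fibrillar procollagens, differed by 0.24 (SE 0.14) and its relative Tll1 by 0.11. The cross-linking enzyme genes Lox and Loxl1 differed by -0.05 (SE 0.17) and 0.05. Among the genes that bind or degrade collagen, the integrin genes Itga1 and Itga2 differed by 0.04 and 0.03, the collagenase gene Mmp1a by -0.01 and the gelatinase gene Mmp2 by 0.13 (SE 0.14).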

How the data were processed

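Skin wound RNA of 6 samples was labelled with Cy3 and hybridised to 1-colour Agilent mouse arrays, per the labels' protocols. The values used are intensities (gProcessedSignal) that the authors deposited as scanner output of Agilent Feature Extraction 10.7.1.1, per the file headers. The submitters' processing notes name version 9.1. Signals of non-control spots without outlier flags were taken to log2, averaged per probe and centred on each array's 75th percentile. Probes flagged well above background on the 3 arrays of a genotype were kept (37898), as was the probe with the highest mean signal for each gene (16408 genes). Genes were named by accession through RefSeq (GRCm38.p6), with 26564 probes matched. Genotypes were compared with limma 3.58.1 in R 4.3.3 (lmFit and eBayes, Benjamini-Hochberg over all genes), and chain pairs with exact permutation over the 720 orders of 6 arrays. The precision is limited by 3 arrays per genotype, for which an exact permutation test of a single gene could not go below 0.1. Data were simulated for the genotype comparison over 16408 genes. There limma called 70% of the 100 genes given a 2-fold change, 87% of the 100 given a 4-fold change and 9 genes given none. With that many genes changed, the adjusted threshold is easier to pass than in the wounds, where 1 of 16408 genes passed. These shares are therefore not the share of such collagen changes that would be called here, which would be lower.

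The members, classes, partner and marker lists were chosen with earlier results of these data known. Values in every sample were planned for Col1a1, Col1a2, Col3a1, Col5a2, Col4a1, Col4a2, Col18a1, Col12a1, Col14a1, Col7a1, Col17a1 and Col6a1, and for any collagen gene with an unadjusted p under 0.05 or with non-overlapping genotypes and 1.5-fold, of which there were none. Col12a1 had no matched probe. Values per sample of Col5a1, Col5a3, Col24a1, Col2a1, Col16a1, Col8a1 and Col8a2 were added after they were seen. Partner genes are up to 2 per list in the order written. Second probes are named where they differ in sign or by over 0.5. The alternatives were normexp background correction (offset 50, on median signals, as mean signals were not used here), quantile normalization, median scaling, other filters on dim probes, the mean over probes, the authors' deposited value table, limma with trend and robust settings, slide row, replicate number and leaving out each array.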

Additional observations from a re-analysis of the deposited data

How the results depend on the processing

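No collagen gene passed the adjusted threshold under any of 17 alternatives, including each array left out (range 0 to 0), and over 642 single-gene values the limma adjusted p ran from 0.462 to 1, while 81 changed sign. Over all genes 1 passed, against 0 with normexp, the filter on all 6 arrays and trend and robust settings, 2 with quantile normalization, 5 with median scaling, 3 with no filter, 7 with slide row as a block, 4 within row 1 and 0 to 28 with an array left out (28 without WT replicate 2). Titles number the animals 1 to 3 in both genotypes, but same-numbered arrays did not deviate together (correlations of -0.068, -0.139 and -0.301, and 0 of 3 best with their own number), and a replicate block gave 0 genes overall and 0 collagens. Collagens at an unadjusted p under 0.05 were 0, against 1 with normexp (Col6a6, with 7.45% of all genes), 1 within row 1 (Col2a1, 3.11%) and 0 to 3 with an array left out (4.13% to 9.1%). The 3 without WT replicate 2 were Col24a1, Col25a1 and Col5a1. Leaving out a FoxO1 +/- array gave Col8a1 without replicate 1, Col2a1 without replicate 2 and Col14a1 without replicate 3. The smallest of these p-values was that of Col2a1 (difference -0.95, limma unadjusted p 0.00501, adjusted p 0.920). Collagens with non-overlapping genotypes were 0, against 6 with normexp (13.3% of all genes), 1 with quantile normalization (11.3%), 2 with median scaling (10.4%), 12 within row 1 (44.9%) and 3 to 10 with an array left out (18.1% to 26.7%).

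With an array left out, median differences ran from 0.024 to 0.14 over all collagens, 0.053 to 0.19 for fibrillar, 0.028 to 0.13 for basement membrane, -0.046 to 0.20 for FACIT, -0.21 to 0.13 for anchoring and -0.093 to 0.22 for the remaining genes. Slide row as a block and row 1 alone rest on FoxO1 +/- replicate 1 against 3 WT arrays and give the same values. The median was then -0.024 for fibrillar genes (5 of 11 above 0), -0.086 for the remaining genes (4 of 11), 0.016 for anchoring and 0.18 for FACIT genes (6 of 6), and signs changed for Col1a1 (-0.030), Col5a2 (-0.084), Col11a1 (-0.43), Col11a2 (0.28), Col27a1 (-0.024), Col4a3 (0.13), Col18a1 (-0.073), Col9a1 (0.13), Col20a1 (0.21), Col6a1 (-0.0020), Col6a4 (-0.32), Col6a5 (-0.17), Col6a6 (-0.16), Col8a2 (0.13), Col26a1 (0.047) and Col28a1 (-0.23). Signs also changed with normexp for Col2a1 (0.10), Col11a2 (0.17), Col4a3 (0.067), Col4a6 (0.048), Col20a1 (0.043), Col7a1 (-0.011) and Col26a1 (0.00028), with quantile normalization for Col1a1 (-0.079), Col7a1 (-0.014) and Col6a1 (-0.013), with median scaling for Col7a1 (-0.022), and with the mean over probes for Col4a4 (-0.20) and Col20a1 (0.098).

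With an array left out, differences of both signs occurred for Col4a5 (-0.15 to 0.10), Col22a1 (-0.29 to 0.62), Col17a1 (-0.33 to 0.023, with 0.0029 without WT replicate 1), Col26a1 (-0.28 to 0.29), Col5a3 (-0.34 to 0.17), Col11a1 (-0.11 to 0.40), Col11a2 (-0.26 to 0.15), Col4a4 (-0.086 to 0.22), Col7a1 (-0.16 to 0.26), Col27a1 (-0.018 to 0.34), Col20a1 (-0.15 to 0.14), Col6a4 (-0.30 to 0.23), Col6a1 (-0.062 to 0.22), Col6a5 (-0.073 to 0.60), Col6a6 (-0.021 to 0.47), Col28a1 (-0.093 to 0.38), Col1a1 (-0.023 to 0.099), Col2a1 (-0.95 to 0.15) and Col4a3 (-0.62 to 0.22). The causes were not tested. Levels near background limit Col2a1, Col4a3, Col6a4 and Col22a1.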

Other observations

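Of the 48 kept genes that modify, export, cleave, cross-link, bind or degrade collagen, 8 had their highest level on FoxO1 +/- replicate 2 and 25 on WT replicate 2, with 6 or fewer on each other array. The share of all genes that peak on each array was not counted, so these counts are not shown to be particular to the list. Plod2, a lysyl hydroxylase gene, had levels of 0.66, 0.82 and 1.14 in FoxO1 +/- wounds, against 0.42, 1.66 and 0.89 in WT wounds. It was chosen after its values were seen. Among the collagens, 5 of 38 had their highest level on WT replicate 2, Col5a3 among them. Adipocyte markers averaged lowest on that array, at 2.35, and the part of any of these in the others was not tested.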
